A study of Homo sapiens with 6 samples.

Results

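The miR-25 and miR-92 family consists of miRNAs that carry the same seed, bases 2 to 8 from the 5′ end, with which a miRNA pairs to its target transcripts. Members were chosen by name, as every mature sequence counted for the stem-loops mir-25, mir-92a, mir-92b and mir-363, both arms. Of these 4 names, 3 had a listed sequence, which gave 6 mature sequences among the 437 in the count tables, 3 of the seed-bearing arm and 3 of the opposite arm. mir-363 was not listed in either table.

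The cells were MDA-MB-231, an estrogen-independent human breast adenocarcinoma line without overexpression of HER2. Parental cells were grown as a 2D adherent monolayer, and spheroid cells as 3D suspension spheroids in serum-free medium. All were of this 1 line, with no further treatment or allele named. Small RNA was sequenced from 3 samples of each condition, but the counts were deposited as 1 table per condition with 0 columns per sample. Each table is named in the descriptions by all the samples of its condition, whereas the study's sample sheet lists it beside replicate 1. The paper's library summary gives 1 index tag per condition and does not say whether samples were pooled before tagging. A table may therefore be a single library or a pool, and no value below has a replicate error.

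In all, 539798 reads were counted in the parental table, and the spheroid total was 2.88 times that, 1553014. For reads mapped to known miRNAs the paper reports the opposite order, with more in parental cells, although its total reads are higher in spheroid cells. The spheroid total here is close to the paper's count of reads mapped to miRBase. The parental total is well below the paper's, for a reason not stated. These totals are therefore no measure of how deeply each culture was sequenced. Levels are given as reads per 1000000 (rpm) of the table total, and a fold is the spheroid over the parental level. The 95% intervals are exact binomial ones (Clopper-Pearson) and cover counting error only, since the tables hold 0 columns per sample. They treat each read as an independent draw, although PCR copies of a molecule cannot be told apart here. Counting error below is therefore that of reads, and the error in sampling molecules could be larger. A sequence was called changed at an adjusted p under 0.05 in Kal's Z-test and a fold over 2 in either direction. This test compares the reads of the 2 tables and says nothing on the spread between cultures. miRNAs abundant in basal breast lines (mir-221, mir-222, mir-22 and mir-100) summed to 53911 rpm in parental and 50789 rpm in spheroid cells. Most of this sum was mir-22, with 37162 and 34368 rpm, and only mir-222 was higher in spheroid cells, with 1908 and 2601 rpm. The 6 epithelial stem-loops of the miR-200 family and mir-205 summed to 39 and 177 reads, 72.2 and 114 rpm, led by mir-200b with 31 and 152 reads, while mir-200c had 0 and 2 reads.

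A miRNA is cut from the stem of a hairpin in a longer primary transcript, and 1 strand of the duplex is loaded into an Argonaute protein. In this family the 3p strand is the guide, and the 5p strand is mostly degraded. mir-25 lies with mir-93 and mir-106b in an intron of MCM7, a helicase subunit gene of replicating cells. miR-92a is made from the mir-17-92 cluster, a target of MYC known from lymphoma, and from its paralog on the X chromosome, the mir-106a-363 cluster, which also holds mir-363. A known target of the family is the pro-apoptotic BCL2L11 (BIM).

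The mature sequences are printed because the 3 abundant members differ only outside the seed. They are from RefSeq (GRCh38.p14), in which all 6 listed sequences were found, and the capitals mark the seed.
miR-92a-3p: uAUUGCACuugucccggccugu
miR-92b-3p: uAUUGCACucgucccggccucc
miR-25-3p: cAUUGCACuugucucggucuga
miR-32-5p: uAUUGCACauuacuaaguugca
miR-363-3p: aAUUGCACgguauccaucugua
Counted from 1 at the 5′ end, miR-92b-3p differs from miR-92a-3p at 3 positions (U10C, G21C and U22C). miR-25-3p differs from miR-92a-3p at 4 positions (U1C, C14U, C18U and U22A). miR-32-5p, a relative with the same seed that is not a member, differs from miR-92a-3p at 11 positions, and miR-363-3p at 12. miR-367-3p has the seed as well and was not listed in either table.

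The 5p strands have other seeds, again in capitals, and differ from each other in theirs.
miR-25-5p: aGGCGGAGacuugggcaauug
miR-92a-1-5p: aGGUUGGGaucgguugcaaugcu
miR-92b-5p: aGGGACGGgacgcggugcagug

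On GRCh37, the build of the authors' annotation, miR-25-3p lies on the minus strand at chr7:99691194-99691215, within MIR25 at chr7:99691183-99691266, in an intron of MCM7 on the same strand. miR-92b-3p lies on the plus strand at chr1:155165028-155165049, within MIR92B at chr1:155164968-155165063, in an exon of the antisense RNA gene THBS3-AS1. miR-92a-3p matches 2 loci. One is on the plus strand at chr13:92003615-92003636 in the non-coding host gene MIR17HG. The other is on the minus strand at chrX:133303574-133303595, within MIR92A2 at chrX:133303568-133303642, in a long non-coding RNA.

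miR-92a-3p was the most abundant member in both cultures and the only abundant one whose level was higher in spheroid cells. It had 11675 reads in parental and 41084 in spheroid cells, 21628 and 26454 rpm, and stood 11th and 9th in abundance among all sequences. The fold was 1.22 (1.20 to 1.25), with an adjusted p of 3.12e-83 in Kal's Z-test. The 3p sequence was thus higher by more than the counting error but far under the threshold of 2.

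miR-92b-3p, the closest in sequence, went the other way. It had 5722 reads in parental and 11228 in spheroid cells, 10600 and 7230 rpm, and moved from the 21st to the 24th place. The fold was 0.682 (0.661 to 0.704), with an adjusted p of 9.77e-124 in Kal's Z-test.

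miR-25-3p was also lower in spheroid cells. It had 3783 and 8236 reads, 7008 and 5303 rpm, and stood 26th and 29th. The fold was 0.757 (0.728 to 0.787), with an adjusted p of 3.97e-45 in Kal's Z-test.

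The 5p strands were near the limit of detection. miR-25-5p had 9 reads in parental and 33 in spheroid cells, 16.7 and 21.2 rpm, a fold of 1.27 (0.597 to 3.03). miR-92a-1-5p had 3 and 5 reads, a ratio of 0.579 with a counting interval from 0.113 to 3.73. miR-92b-5p had 1 read in each table. At these depths no difference was detectable for any of the 3.

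**Figure D1:**
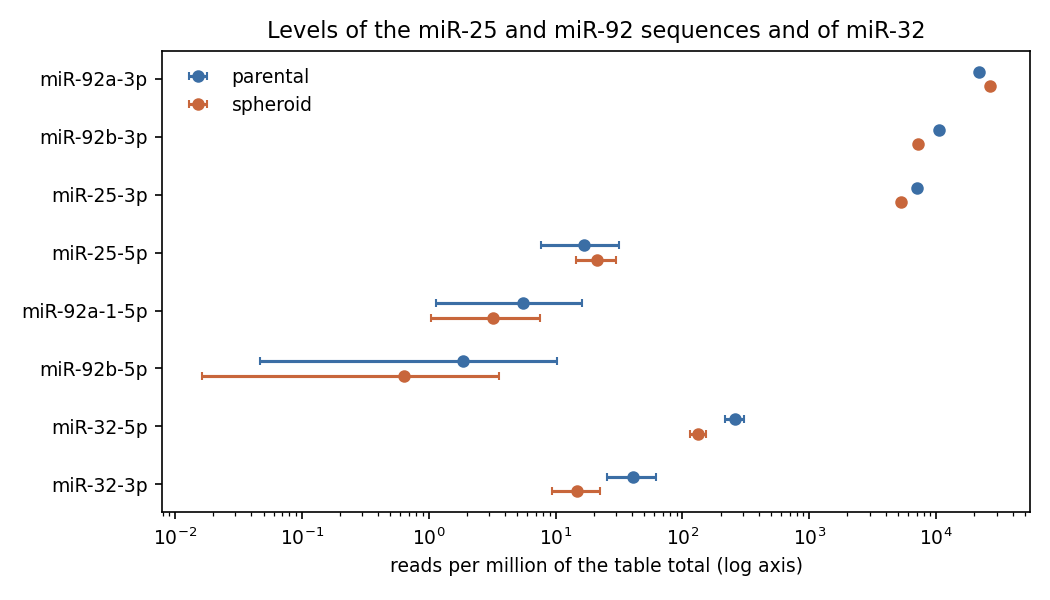
Levels of the 6 member sequences and of both miR-32 strands, in rpm of the table total on a log axis, with parental cells in blue and spheroid cells in orange and bars for the 95% counting interval. The guide strands lie between 5303 and 26454 rpm, while the 5p strands of the family are at 21.2 rpm or less.

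None of the 6 members was called in either direction. Over the 436 sequences with a read, 21 were called higher (4.82%) and 39 lower (8.94%). For 6 sequences, a count of 0 is near this background. With TMM factors, which shift every log2 fold by 0.16, the calls over all sequences were 28 higher and 30 lower, and the members again had 0. Without the fold threshold, Kal's Z-test passed 1 member as higher and 2 as lower, beside 14.7% and 22.7% of all sequences. Fisher's exact test with the threshold called 0 members, beside 4.82% higher and 8.72% lower. Only miR-92b-5p, with 1 read in each table, had a fold beyond that threshold, so no other member could be called by this test. By the interval of the fold, 1 of the 6 members lay above 1 and 2 lay below it. Over all 436 sequences, 15.8% lay above 1 and 23.9% below. The median log2 fold was -0.48 over the 6 members and -0.20 over the 369 sequences with a fold. The 6 include the 5p strands, which had few reads, and over the 3 seed-bearing members the median was -0.40. Median-of-ratios factors shift every log2 fold by 0.20, and relative to that shift the folds were 1.41 for miR-92a-3p, 0.785 for miR-92b-3p and 0.871 for miR-25-3p.

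On the table totals, the reads of the seed as a whole hardly moved. The 3 seed-bearing members summed to 21180 reads in parental and 60548 in spheroid cells, 3.92% (3.87% to 3.98%) and 3.90% (3.87% to 3.93%) of all miRNA reads. The summed fold was 0.994 (0.978 to 1.01), and with miR-32-5p added it was 0.991 (0.975 to 1.01). Grouped by seed, with miR-32-5p included, the family stood 6th in parental and 7th in spheroid cells among 346 seeds. The side of 1 on which the sum falls depends on the scale and the reads counted. With TMM factors it was 1.11, and with exact mature reads on the table totals 0.797, both beyond counting error.

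Within the sum, miR-92a-3p took a larger part in spheroid cells. It held 55.1% (54.4% to 55.8%) of the family's reads in parental cells and 67.9% (67.5% to 68.2%) in spheroid cells, 12.7 percentage points more. miR-92b-3p dropped by 8.47 points to 18.5% in spheroid cells. miR-25-3p went from 17.9% to 13.6%. Together, these last members fell from 1.76% to 1.25% of all reads, a fold of 0.712 (0.694 to 0.730).

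**Figure D2:**
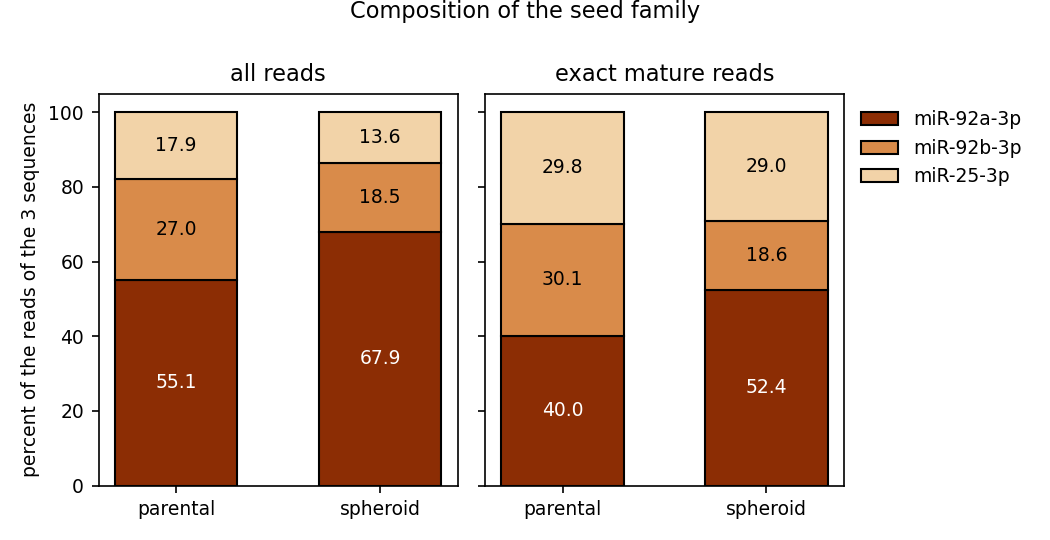
Percent of the reads of the 3 seed-bearing sequences held by each, as stacked bars for parental and spheroid cells, over all reads on the left and over exact mature reads on the right. miR-92a-3p (dark brown) grows from 55.1% to 67.9% of all reads and from 40.0% to 52.4% of exact reads.

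Ratios between members do not depend on the scale of the tables. There were 2.04 reads of miR-92a-3p for each read of miR-92b-3p in parental cells and 3.66 in spheroid cells, a 1.79-fold change (1.73 to 1.86, a log-normal counting interval, as for the other ratios). Over exact mature reads alone the ratio went from 1.33 to 2.82, a 2.12-fold change (2.00 to 2.25). The ratio of miR-92a-3p to miR-25-3p went from 3.09 to 4.99, a 1.62-fold change (1.55 to 1.69), and over exact reads the change was 1.34-fold (1.27 to 1.42). miR-25-3p and miR-92b-3p, both lower, kept a closer ratio, 0.661 in parental and 0.734 in spheroid cells (1.11-fold, 1.06 to 1.17), but over exact reads this ratio changed 1.57-fold (1.48 to 1.68). miR-92a-3p thus gained on both others under either count, whereas the size of the difference between miR-25-3p and miR-92b-3p was set by which reads were counted.

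The reads of each member divide into those equal to the annotated mature sequence and variants in length or sequence. The exact share of miR-92b-3p was 52.8% (51.5% to 54.1%) in parental cells and 38.1% (37.2% to 39.0%) in spheroid cells, 14.7 points lower. Its exact reads went from 5597 to 2754 rpm, a fold of 0.492 (0.470 to 0.516), while its variants went from 5004 to 4476 rpm, a fold of 0.894 (0.855 to 0.935). Most of the lower level of miR-92b-3p was thus in exact reads.

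The exact share of miR-92a-3p was 34.4% (33.6% to 35.3%) in parental cells and 29.3% (28.9% to 29.8%) in spheroid cells. Its exact reads were nearly level, 7444 and 7758 rpm with a fold of 1.04 (1.01 to 1.08), and its variants rose from 14185 to 18697 rpm, a fold of 1.32 (1.29 to 1.35). Most of the higher level of miR-92a-3p was thus in variants.

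miR-25-3p was mostly exact in both cultures, 79.1% (77.8% to 80.4%) and 81.0% (80.2% to 81.9%). Its exact reads had a fold of 0.775 (0.742 to 0.809) and its variants one of 0.688 (0.631 to 0.750). Both classes of miR-25-3p were lower in spheroid cells.

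**Figure D3:**
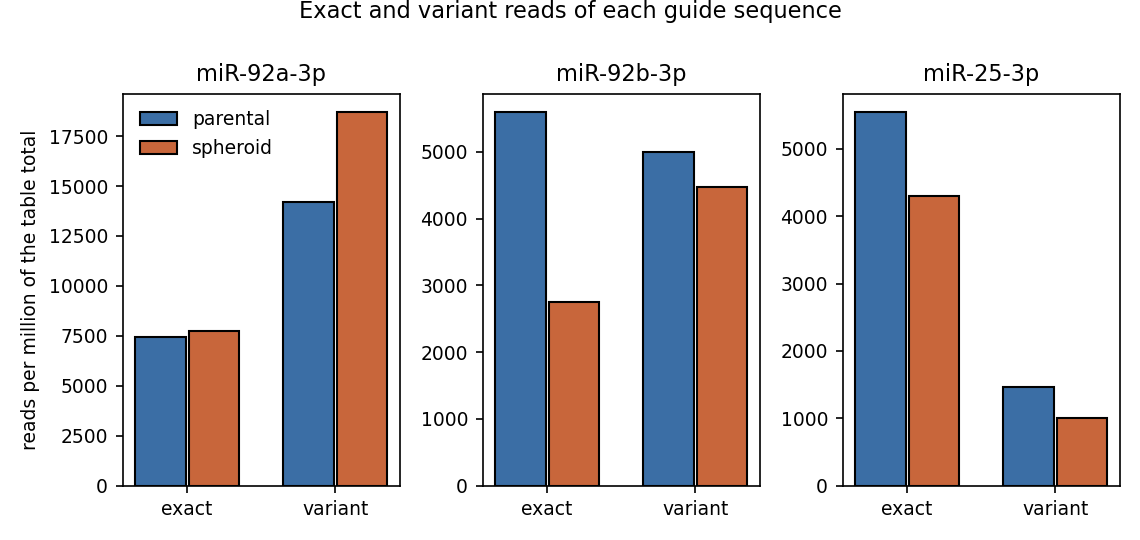
Exact and variant reads of the 3 guide sequences in rpm of the table total, parental in blue and spheroid in orange, on a linear axis that differs between panels. The largest drop is in the exact reads of miR-92b-3p, from 5597 to 2754 rpm, and the rise of miR-92a-3p is in its variants, from 14185 to 18697 rpm.

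These shifts were set beside the 53 sequences with at least 1000 reads in both tables. Their folds ran from 0.405 to 1.81, with quartiles of 0.721 and 1.12. miR-92b-3p stood 12th from the lowest fold, miR-25-3p 17th from the lowest and miR-92a-3p 10th from the highest. The change of the exact share ran from -14.7 to 6.29 points with a median of -0.37, and 31 of the 53 were lower. The drop of miR-92b-3p was the lowest value of the 53, and 5 of them fell by more than 10 points. miR-92a-3p stood 12th from the lowest and miR-25-3p 9th from the highest. Over all reads of the tables, 34.9% were exact in parental cells and 32.7% in spheroid cells.

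The tables also count reads as unique, a column that the sources used here do not define. The 2 hairpins that hold miR-92a-3p differ in the bases around the mature sequence. Whether such differences set which reads are counted as unique was not tested. The hairpins are printed from RefSeq (GRCh38.p14), with miR-92a-3p in capitals at positions 48 to 69 of each.
MIR92A1: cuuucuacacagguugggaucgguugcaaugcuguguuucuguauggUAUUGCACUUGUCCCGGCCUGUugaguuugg
MIR92A2: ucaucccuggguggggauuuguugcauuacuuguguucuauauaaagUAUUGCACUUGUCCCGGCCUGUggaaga
The hairpins differ at the first base after the mature 3′ end, and before its 5′ end the nearest difference is 2 bases away. None of the exact reads of miR-92a-3p was counted as unique, and the same held for all 37 sequences shared by several stem-loops. For all 399 sequences of 1 stem-loop, every exact read was unique.

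Variants of miR-92a-3p were in part unique, 1638 reads in parental and 7166 in spheroid cells. They made up 14.0% (13.4% to 14.7%) and 17.4% (17.1% to 17.8%) of its reads. Their level went from 3034 to 4614 rpm, a fold of 1.52 (1.44 to 1.61), while the remaining reads had a fold of 1.17 (1.15 to 1.20). The other 11 abundant sequences shared by several stem-loops had unique shares of up to 5.45% in parental cells and of up to 5.06% in spheroid cells, with medians of 0.849% and 0.730%. The tables do not say to which of the 2 loci a unique read belongs, so the reads of chromosomes 13 and X cannot be told apart.

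The reads of each of the names mir-25, mir-92a and mir-92b were almost wholly 3p. Of the reads of mir-25, the 5p strand made up 0.237% (0.109% to 0.450%) in parental cells and 0.399% (0.275% to 0.560%) in spheroid cells. It made up 0.0257% and 0.0122% of the reads of mir-92a, and 0.0175% and 0.00891% of those of mir-92b. For mir-92a, miR-92a-1-5p was set against the 3p reads of both loci, as miR-92a-2-5p was not listed in either table. The value is thus not the share of a single mir-92a hairpin. The mir-106b hairpin, a neighbour of mir-25, was far more even over all reads, with 32.0% (28.3% to 35.8%) and 34.7% (32.1% to 37.3%) in the 3p strand. Over exact reads alone its 3p strand held only 4.70% and 3.80%. For mir-25, mir-92a and mir-92b the intervals of these shares overlapped between the cultures.

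Partners from the same primary transcripts were compared next, 15 listed sequences. Of these, 0 were called higher and 1 lower, beside the 4.82% and 8.94% of all sequences, and the intervals of 0 lay above 1 and of 5 below it, beside 15.8% and 23.9%. Their median log2 fold was -0.38, over the 14 with a fold.

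In the mir-106b-25 cluster, the levels were lower in spheroid cells for every sequence with at least 50 parental reads. miR-93-5p and miR-106b-5p share the seed of miR-17 and target, among others, the cell cycle inhibitor CDKN1A. miR-93-5p had 1789 reads in parental and 3709 in spheroid cells, a fold of 0.721 (0.681 to 0.763). miR-106b-5p had 428 and 870 reads, a fold of 0.707 (0.629 to 0.795), and miR-106b-3p had 201 and 462, a fold of 0.799 (0.676 to 0.948). With TMM factors all 3 stayed below 1, but the interval of miR-106b-3p, at 0.895, then included 1.

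The folds of miR-25-3p and these 5p partners were close. The ratio of miR-25-3p to miR-93-5p was 2.11 and 2.22 in parental and spheroid cells, a 1.05-fold change (0.981 to 1.12), and its ratio to miR-106b-5p changed 1.07-fold (0.948 to 1.21). Over exact reads the ratio to miR-93-5p changed 1.65-fold (1.48 to 1.84), and the ratio to miR-106b-5p 0.983-fold. The exact share of miR-93-5p was 24.2% in spheroid cells and had dropped by 12.8 points. Larger drops than that of miR-92b-3p were seen in the less abundant miR-17-5p, from 46.5% to 27.9%, and miR-20a-5p, from 49.9% to 31.2%.

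The mir-17-92 partners of miR-92a-3p were more spread, with folds from 0.427 to 1.26 among those with at least 50 parental reads. miR-17-5p, of the seed group that acts on E2F1 and CDKN1A, had 520 and 1480 reads, a fold of 0.989 (0.895 to 1.10). That value lay above 1 with TMM factors, at 1.11, and below 1 with exact reads, at 0.633 (0.539 to 0.745). miR-20a-5p, of the same seed, had 405 and 817 reads, a fold of 0.701 (0.622 to 0.792). miR-19b-3p, whose sequence is shared with the X-linked cluster, had 257 and 725 reads, a fold of 0.981 (0.849 to 1.13).

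miR-19a-3p, of the miR-19b seed, had 53 and 192 reads, a fold of 1.26 (0.925 to 1.74). miR-18a-5p, with 110 and 135 reads, was the 1 partner called, with a fold of 0.427 (0.329 to 0.554) and an adjusted p of 5.56e-11 in Kal's Z-test. This call did not hold in edgeR's exact test when a coefficient of variation of 0.2 between cultures was assumed, where 0 partners and 1.83% of all sequences were called lower.

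Ratios of miR-92a-3p to these partners do not depend on the scale. The ratio of miR-92a-3p to miR-17-5p was 22.5 in parental and 27.8 in spheroid cells, a 1.24-fold change (1.12 to 1.37). Its ratio to miR-20a-5p changed 1.74-fold (1.55 to 1.97) and to miR-18a-5p 2.87-fold (2.23 to 3.69). Its ratio to miR-19b-3p changed 1.25-fold (1.08 to 1.44), and to miR-19a-3p 0.971-fold (0.716 to 1.32). Over exact reads the change against miR-19b-3p was 1.08-fold (0.877 to 1.33) and that against miR-19a-3p 0.750-fold (0.491 to 1.14), both within counting error of no change. Over unique reads, of which miR-19b-3p had 15 and 26, its change was 2.52-fold.

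The partners found only in the X-linked cluster were barely counted. miR-106a-5p had 2 and 7 reads and miR-20b-5p 1 read in each table, with 0 unique reads for both. The remaining 5 partners, miR-93-3p, miR-17-3p, miR-18a-3p, miR-20a-3p and miR-19b-1-5p, are opposite strands, of which miR-17-3p had the most reads, 51 and 109, a fold of 0.743.

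**Figure D4:**
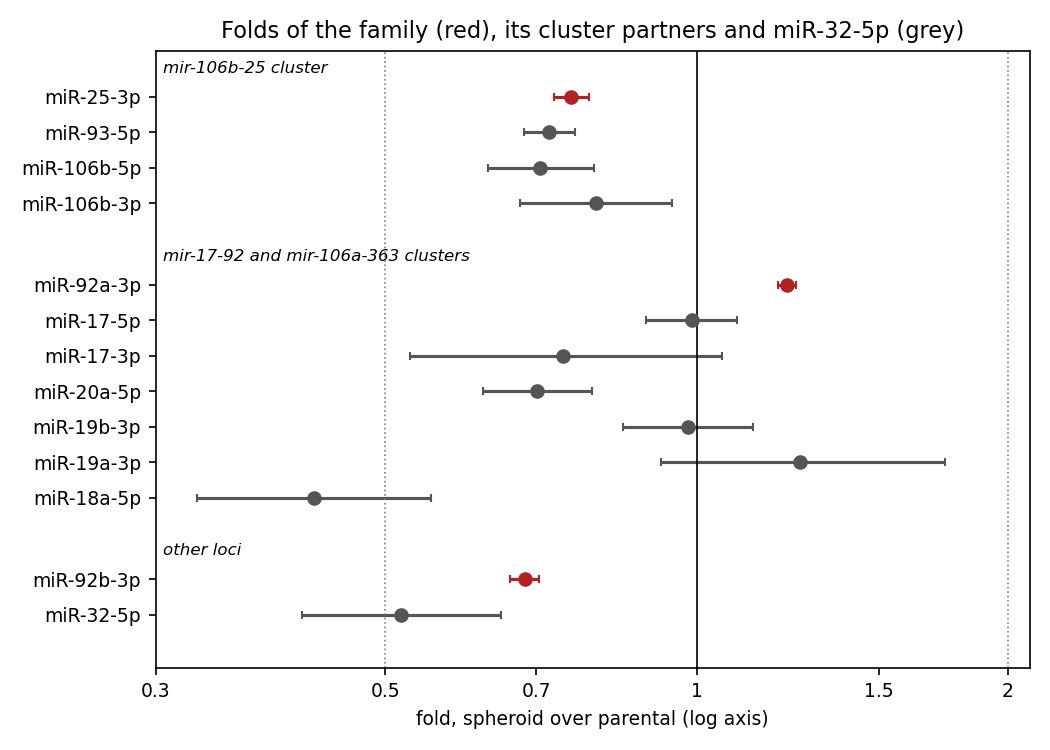
Fold of spheroid over parental level on a log axis for the 3 guide sequences (red), their cluster partners with at least 50 parental reads and miR-32-5p (grey), with 95% counting intervals and dotted lines at 0.5 and 2. miR-25-3p lies among its partners at 0.757, whereas the partners of miR-92a-3p, at 1.22, run from miR-18a-5p at 0.427 to miR-19a-3p at 1.26.

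miR-32-5p, from an intron of TMEM245 at chr9:111808552-111808573 on the minus strand, is the further sequence with the family seed in the tables. It had 139 reads in parental and 207 in spheroid cells, 258 and 133 rpm, a fold of 0.518 (0.416 to 0.646). Its fold fell just short of the threshold, so it was not called. Its opposite strand, miR-32-3p, had 22 and 23 reads and was called lower, with a fold of 0.363 (0.194 to 0.684) and an adjusted p of 0.00133 in Kal's Z-test. None of the reads of miR-32-5p equalled the annotated mature sequence, 0 of 139 and 0 of 207, which allows exact shares of up to 2.62% and 1.77%. The ratio of miR-25-3p to miR-32-5p went from 27.2 to 39.8, a 1.46-fold change (1.18 to 1.82).

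**Figure D5:**
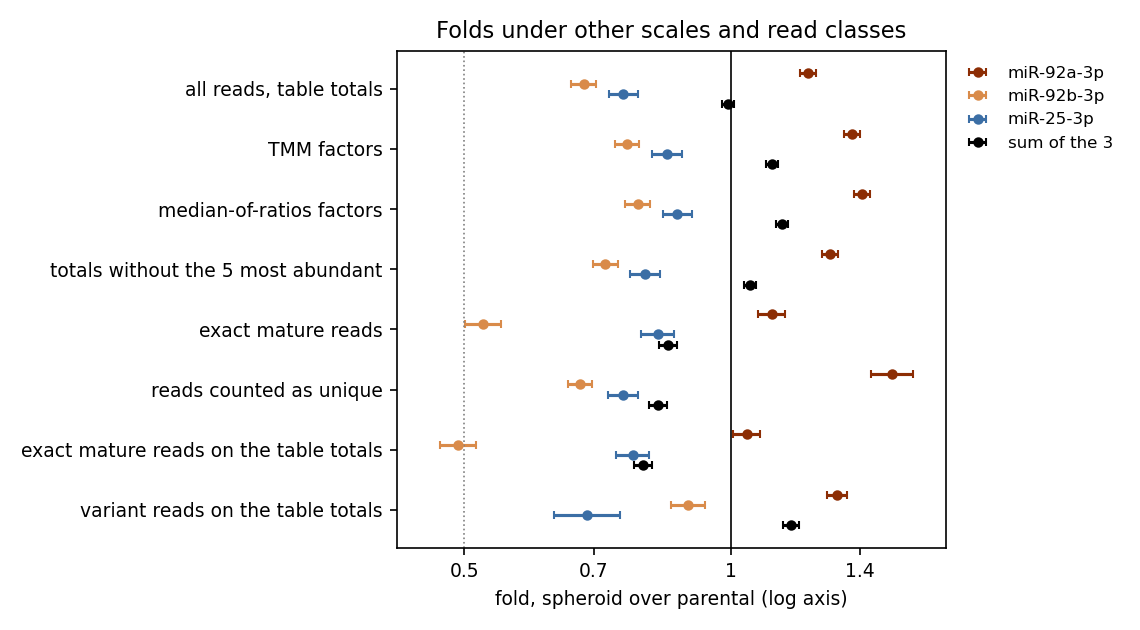
Fold of spheroid over parental level (log axis) of the 3 guide sequences and of their sum under 8 combinations of scale and reads counted, with 95% counting intervals and a dotted line at 0.5. miR-92a-3p lies above 1 and both others below 1 in every combination, while the sum lies on either side, from 0.797 to 1.17.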

How the data were processed

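The deposited tables hold counts, whole numbers of reads per mature miRNA, which the authors made from TruSeq libraries with CLC Genomics Workbench 7.0 by removing reads under 17 or over 27 nucleotides and annotating what was left with miRBase 19 and with Ensembl (GRCh37, release 57) noncoding RNA. Exact and unique reads are further deposited columns, each a part of that count. Tables were joined by sequence, and reads scaled to 1000000 per table. Of the 437 sequences, 388 matched a RefSeq mature name. Loci are exact matches to GRCh37, annotated with GENCODE release 44. Counted reads numbered 539798 parental and 1553014 spheroid, and the parental number is well below the mapped total in the paper.

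Intervals and Kal's Z-test, adjusted over 436 sequences (Benjamini-Hochberg), were computed in Python 3.11.15 with scipy 1.17.1, numpy 2.4.6 and pandas 2.3.3, and matplotlib 3.10.9 drew the plots. The steps were tested on simulated counts. Values against a table at 0 reads used a floor of 3 reads. No replicated test was possible. Named were all members, same-seed relatives and cluster partners. Members and lists were chosen with earlier results of these data known.

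Alternatives were TMM factors (edgeR 4.0.16) and median-of-ratios factors (DESeq2 1.42.0, R 4.3.3), totals without the 5 most abundant sequences of each table, exact or unique reads, no fold threshold, a minimum of 10 or 100 reads, edgeR's exact test under a coefficient of variation set to 0.2 or 0.4, and Fisher's exact test. Exact or variant reads over the table totals were added after seeing the data.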

Additional observations from a re-analysis of the deposited data

How the results depend on the processing

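The folds of miR-92a-3p, miR-92b-3p and miR-25-3p kept their direction, beyond counting error, under all 7 alternatives of scale and reads counted. They ranged from 1.04 to 1.52, from 0.492 to 0.894 and from 0.688 to 0.871. The summed fold of the 3 was 1.11 with TMM factors, 1.14 with median-of-ratios factors and 1.05 without the 5 most abundant sequences. It was 0.850 with exact and 0.828 with unique reads and, on the table totals, 0.797 with exact and 1.17 with variant reads. Unique reads leave out every exact read of miR-92a-3p, which made up only 14.8% of that sum in parental and 27.1% in spheroid cells. The fold of miR-17-5p was 1.11 with TMM factors, 1.14 with median-of-ratios factors, 0.633 with exact reads and, on the table totals, 0.593 with exact and 1.33 with variant reads. Without the fold threshold, 1 member was called higher and 2 lower, and 5 partners lower, beside 14.7% and 22.7% of all sequences. Partners above counting error numbered 2 with TMM (19% of all sequences) and 3 with median-of-ratios factors (20.4%). Partners called lower numbered 2 with exact reads (7.72%) and 0 with edgeR's exact test at an assumed coefficient of variation of 0.2 (1.83%) or 0.4, where 0 of the 436 sequences were called lower. The causes were not tested.

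No paired analysis was possible because the tables hold 0 columns per sample, and for the same reason leaving out a replicate was not run. The exact share over unique reads was not run for miR-92a-3p, whose exact reads exceed its unique reads. With 1 table per condition, culture, library and batch cannot be told apart, and depth limits the 5p strands.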
